A study of Mus musculus with 9 samples.

Results

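Igf2r, Airn, Slc22a2 and Slc22a3 on mouse chromosome 17 and H19, Igf2 and Ins2 on chromosome 7 make up a pair of imprinted loci, in which the active copy of a gene depends on the parent it came from. These 7 genes were taken by symbol from the 25965 genes of the deposited expression table, 4 from chromosome 17 and 3 from chromosome 7. Of the 7, 4 had enough reads to be tested (Igf2r, Airn, H19 and Igf2), among 14044 genes tested in all, and 3 lay below the filter on low values (Slc22a2, Slc22a3 and Ins2). Total RNA was sequenced from 9 neural stem cell cultures, whose cells renew themselves and can form the neurons and glia of the brain, to compare cells in which the gene of the chromatin protein Smchd1 was deleted with their controls. All lines were derived from C57BL/6 E14.5 embryos in which both alleles of Smchd1 carry loxP sites (Smchd1 fl/fl), and every line was divided into a transduced and an untransduced culture. The del/del libraries came from female lines 1, 2 and 3 and male line 5, transduced with the retrovirus MSCV-Cre-puro, given puromycin from 24 h and harvested at day 7. The fl/fl libraries came from untransduced cells of female lines 1, 2 and 3 and male lines 5 and 7. Retrovirus, puromycin and deletion of Smchd1 therefore go together and cannot be told apart, and the fl/fl cells received neither Cre nor the resistance gene. All 9 libraries come from a single strain, so the reads of the maternal and paternal copies cannot be told apart either.

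Igf2r encodes a membrane receptor that clears insulin-like growth factor 2 and sorts mannose 6-phosphate tagged enzymes to lysosomes, and most mouse tissues express its maternal copy. Airn is a long non-coding RNA transcribed from the paternal copy, antisense to Igf2r from a start inside an Igf2r intron; it silences Igf2r on that copy and, in placenta, the transporter genes Slc22a2 and Slc22a3. At the other locus, a control region bound by CTCF on the maternal copy lets enhancers act on H19, a non-coding RNA that hosts a microRNA, and on the paternal copy they act on Igf2, which encodes the growth factor; Ins2, a mouse insulin gene, lies beyond Igf2. Both Igf2r and Igf2 can escape imprinting in parts of the mouse brain, Igf2r in neurons and Igf2 in choroid plexus and meninges. Smchd1 is known to help silence the inactive X chromosome and members of several imprinted clusters.

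On the mouse build mm10, the Igf2r entry of the table spans chr17:12682406-12769664 on the minus strand and the Airn entry chr17:12741311-12860122 on the plus strand. They share 28354 bases, 32.5% of the Igf2r span and 23.9% of the Airn span. The shared stretch holds 519 exon bases of Igf2r (5.58% of its merged exons) in 3 exons, by GENCODE vM21. The strand setting of the authors' counting is not given in the sources used here, so reads of either gene from that stretch may be counted in the other, and both entries carry the same transcript identifier. The start regions of Igf2r and Airn are printed because these opposed transcripts overlap and their starts differ in CG content. Each stretch runs from 250 bases before to 50 bases after the RefSeq start (GRCm38.p6), written 5′ to 3′ on the gene's own strand, with every CG dinucleotide, the site of DNA methylation, in capitals. The Igf2r stretch is chr17:12769657-12769956 (minus strand) and the Airn stretch is chr17:12741061-12741360 (plus strand).
Igf2r: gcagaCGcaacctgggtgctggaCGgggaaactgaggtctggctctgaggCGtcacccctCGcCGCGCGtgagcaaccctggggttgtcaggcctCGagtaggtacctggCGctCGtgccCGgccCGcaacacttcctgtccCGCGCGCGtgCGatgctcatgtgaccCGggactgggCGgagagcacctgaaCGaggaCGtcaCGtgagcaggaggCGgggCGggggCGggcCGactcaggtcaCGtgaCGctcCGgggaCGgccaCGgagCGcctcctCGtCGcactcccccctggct
Airn: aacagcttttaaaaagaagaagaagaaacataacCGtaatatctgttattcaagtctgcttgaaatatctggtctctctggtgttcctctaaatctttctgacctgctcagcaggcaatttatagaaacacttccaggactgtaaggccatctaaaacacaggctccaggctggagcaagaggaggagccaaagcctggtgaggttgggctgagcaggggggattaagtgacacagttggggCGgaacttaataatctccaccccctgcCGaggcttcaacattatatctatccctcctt
The Igf2r stretch holds 34 CG dinucleotides at a GC content of 70.7%, more CG than 92.3% of the 32851 mouse promoters of the RefSeq table, whose median is 7. The Airn stretch holds 3 at a GC content of 45.7%. The string TCACGTGA (the same on both strands, with CACGTG inside it), is the sequence that lysosomal regulators of the TFEB family are known to bind. It stands at 2 places in the Igf2r stretch, starting 49 and 8 bases before the start, and 0.974% of all promoters hold it. CACGTG alone stands in 7.15% of promoters. TATAAA, searched on both strands, occurs once in the Airn stretch, on the strand opposite to the one printed, and in 13.6% of all promoters. RefSeq gives Igf2 4 starts, with 2 to 24 CG dinucleotides each. Promoter entries were matched for Igf2r, Airn, Igf2, Slc22a2 and Slc22a3, and not for H19 and Ins2. These letters describe the reference and say nothing of binding or methylation in these cells.

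The chromosome 7 genes lie on the minus strand, with H19 at chr7:142575529-142578143, Igf2 at chr7:142650766-142666816 and Ins2 at chr7:142678656-142699510. H19 and Igf2 stand 72.6 kb apart and Igf2 and Ins2 11.8 kb apart. H19 and Igf2 each host a microRNA, and their mature forms (RefSeq, GRCm38.p6) are shown because they lie inside these genes and none has an entry of its own in the table. The seed, bases 2 to 8, is in capitals.
mmu-miR-675-5p: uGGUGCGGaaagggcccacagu
mmu-miR-675-3p: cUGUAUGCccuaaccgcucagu
mmu-miR-483-5p: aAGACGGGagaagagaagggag
mmu-miR-483-3p: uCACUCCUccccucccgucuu
The miR-675 hairpin lies within an H19 exon, and the miR-483 hairpin lies inside Igf2 but not within an exon. The 4 seeds differ from each other and none is shared with another mature mouse microRNA of the table. The mature microRNAs themselves were not measured here.

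Levels are log2 RPM as the authors gave them, where RPM is reads per M reads and M stands for 1e+06. The libraries hold 32.9 M to 44.9 M reads in listed genes, except female fl/fl 2 with 12.9 M, and that library also stands apart in the share of its reads that fall in listed genes, 53.3% against 34.8% to 44.4% in the other libraries. The descriptions of 6 libraries (female del/del 2 and 3, male del/del 5, female fl/fl 2 and 3, male fl/fl 5) start with RNA-, while female del/del 1, female fl/fl 1 and male fl/fl 7 lack that prefix; what it stands for is not given. Smchd1 itself fell 2.28-fold, to 5.04 to 5.36 log2 RPM in del/del against 6.16 to 6.81 log2 RPM in fl/fl (limma adjusted p = 0.00751), so reads of the gene remained in every del/del library. It no longer passed without male del/del 5 (log2 fold change -1.24, adjusted p = 0.0930) or within the 6 RNA- libraries (-1.25, adjusted p = 0.0553), though the estimate was as large as over all 9 libraries (-1.19). Tests used limma over 14044 genes with Benjamini-Hochberg adjustment and a threshold of 0.05. In the comparison over both sexes, 1.55% of all tested genes passed (1.45% rose and 0.0997% fell), and of the 4 tested imprinted genes 0 passed. At an unadjusted p under 0.05, H19 and Igf2 passed, beside 9.84% of all tested genes. Of the 4, 3 had an estimate above 0, as did 48.9% of all tested genes. Each log2 fold change is del/del over fl/fl. In these bulk cultures, fewer cells that express a gene and less RNA per cell cannot be told apart.

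**Figure D1:**
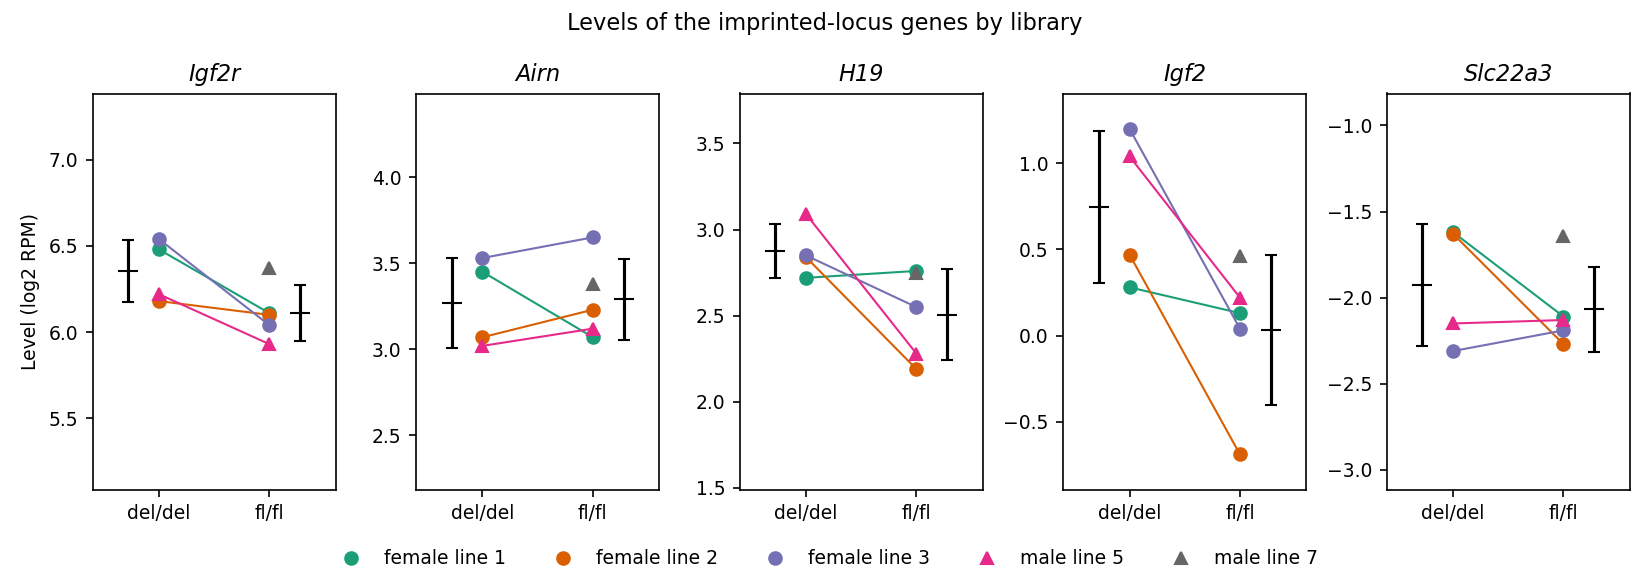
Level of the 4 tested genes and Slc22a3 (log2 RPM, y axes of equal length) in each library, del/del left and fl/fl right. Symbols are libraries, lines join the cultures of 1 line, and bars give the mean and SD (n = 4 del/del, n = 5 fl/fl). Igf2 averaged 0.75 in del/del and 0.03 in fl/fl, with male fl/fl 7 at 0.46 inside the del/del range.

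Igf2, the growth factor gene, had the largest estimate of the 4. Its levels were 0.28, 0.47 and 1.20 log2 RPM in female del/del 1, 2 and 3 and 1.04 in male del/del 5, against 0.13, -0.69 and 0.04 in female fl/fl 1, 2 and 3 and 0.22 and 0.46 in male fl/fl 5 and 7. Thus 3 of 4 del/del libraries lay above every fl/fl library, and female del/del 1 overlapped with male fl/fl 7. The counts behind these levels are low, 90 to 227 reads per del/del library and 15 to 159 per fl/fl library. The 15 reads of female fl/fl 2 put its level at 0.622 RPM with a 95% exact binomial interval of 0.348 to 1.03 RPM, which covers counting error only. The mean was 0.75 ± 0.439 log2 RPM in del/del (SD, n = 4) and 0.03 ± 0.431 log2 RPM in fl/fl (SD, n = 5). The log2 fold change was 0.78 (SE 0.279, 95% interval 0.16 to 1.40), or 1.72-fold, and it did not pass (limma adjusted p = 0.309). With cell line as a block, the estimate was 0.82 at an adjusted p of 0.0921.

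H19, the non-coding RNA of the same locus, differed less. Its levels were 2.72, 2.84 and 2.85 log2 RPM in female del/del 1, 2 and 3 and 3.09 in male del/del 5, against 2.76, 2.19 and 2.55 in female fl/fl 1, 2 and 3 and 2.28 and 2.75 in male fl/fl 5 and 7. Male del/del 5 was the highest library and female fl/fl 2 the lowest, and the ranges overlapped, since female del/del 1 at 2.72 lay below female fl/fl 1 at 2.76 and male fl/fl 7 at 2.75. Behind these levels stand 489 to 869 reads per del/del library and 110 to 792 per fl/fl library. The mean was 2.88 ± 0.155 log2 RPM in del/del (SD, n = 4) and 2.51 ± 0.263 log2 RPM in fl/fl (SD, n = 5). The log2 fold change was 0.39 (SE 0.151, 95% interval 0.05 to 0.73), or 1.31-fold, and did not pass (limma adjusted p = 0.377). With a weight per library in place of equal weights, H19 passed (log2 fold change 0.41, limma adjusted p = 0.0454), but so did 9.78% of all tested genes.

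Igf2r, the receptor, was the most abundant of the 7 in reads, with 6586 to 9216 per del/del library and 1649 to 9562 per fl/fl library. Its levels were 6.48, 6.18 and 6.54 log2 RPM in female del/del 1, 2 and 3 and 6.22 in male del/del 5, against 6.11, 6.10 and 6.04 in female fl/fl 1, 2 and 3 and 5.93 and 6.37 in male fl/fl 5 and 7. In females the 3 del/del libraries lay above the 3 fl/fl libraries, at 6.18 or more against 6.11 or less, as for 11.7% of all tested genes, and over all 9 libraries the ranges overlapped through male fl/fl 7. The mean was 6.35 ± 0.182 log2 RPM in del/del (SD, n = 4) and 6.11 ± 0.162 log2 RPM in fl/fl (SD, n = 5). The log2 fold change was 0.24 (SE 0.137, 95% interval -0.07 to 0.55), or 1.18-fold with an interval of 0.954 to 1.46, and it did not pass (limma adjusted p = 0.740).

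Airn, the antisense RNA, had the smallest estimate. Its levels were 3.45, 3.07 and 3.53 log2 RPM in female del/del 1, 2 and 3 and 3.02 in male del/del 5, against 3.07, 3.23 and 3.65 in female fl/fl 1, 2 and 3 and 3.12 and 3.38 in male fl/fl 5 and 7. The highest and the second highest library carried opposite genotypes (female fl/fl 3 and female del/del 3), both from line 3, and the ranges overlapped over most of their length. The mean was 3.27 ± 0.259 log2 RPM in del/del (SD, n = 4) and 3.29 ± 0.231 log2 RPM in fl/fl (SD, n = 5). The log2 fold change was -0.05 (SE 0.152, 95% interval -0.39 to 0.29, limma adjusted p = 0.997). As a fold change, this 95% interval runs from 0.764 to 1.22. It holds for the Airn entry, in which reads of Igf2r may be counted. The sign turned to 0.03 without female del/del 2 and without male del/del 5, and to 0.04 without female fl/fl 3.

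The genes that Airn silences in placenta were almost without reads. Slc22a3, which encodes an organic cation transporter, had -1.62, -1.63 and -2.31 log2 RPM in female del/del 1, 2 and 3 and -2.15 in male del/del 5, against -2.11, -2.27 and -2.19 in female fl/fl 1, 2 and 3 and -2.13 and -1.64 in male fl/fl 5 and 7. These levels overlapped and rest on 20 to 34 reads per del/del library and 5 to 37 per fl/fl library. Summed, there were 101 reads in del/del (0.266 RPM) and 117 in fl/fl (0.249 RPM). In a fit without the filter on low values, over 22321 genes, Slc22a3 had a log2 fold change of 0.15 (SE 0.35, limma adjusted p = 0.998). Slc22a2, a related transporter, had 0 reads in each del/del library and 3 reads in all fl/fl libraries together, 1 in female fl/fl 3 and 2 in male fl/fl 5. Ins2 had 1 read in del/del, in female del/del 2, and 3 in fl/fl, all in male fl/fl 5. A library with 0 reads allows up to 3 reads, which is 0.0257 to 0.124 RPM in these libraries, and no fold change is given for Slc22a2 or Ins2.

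Set against length, the order of the genes depended on which length was used, since it is not given whether reads in introns were counted. Per kb of merged GENCODE exons, Igf2r had 8.84 ± 1.11 RPM per kb in del/del and 7.46 ± 0.873 in fl/fl (SD, n = 4 and n = 5). Per kb of exon, H19 followed with 3.00 ± 0.332 in del/del and 2.34 ± 0.418 in fl/fl, close to Airn with 2.71 ± 0.483 in del/del and 2.75 ± 0.460 in fl/fl. H19 and Airn did not differ beyond their spread, and their order turned between the genotypes. Igf2 stood lower, at 0.304 ± 0.0904 RPM per exon kb in del/del and 0.185 ± 0.0483 in fl/fl, and Slc22a3 lower still, at 0.0596 ± 0.0142 in del/del and 0.0535 ± 0.0100 in fl/fl. Per kb of the whole table entry, H19 came first, with 2.82 ± 0.312 RPM per kb in del/del and 2.20 ± 0.393 in fl/fl, ahead of Igf2r with 0.943 ± 0.118 in del/del and 0.796 ± 0.0931 in fl/fl. On that scale Airn, which spans 118812 bases, had 0.0820 ± 0.0146 in del/del and 0.0832 ± 0.0139 in fl/fl. Igf2 had 0.108 ± 0.0322 in del/del and 0.0659 ± 0.0172 in fl/fl. The Airn mean lay below that of Igf2 in del/del, within the SD of Igf2, and above it in fl/fl.

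Because each line was divided into the 2 cultures, the difference can also be read within a line. Igf2 was higher in the del/del culture of all 4 lines, by 0.15, 1.16 and 1.16 in female lines 1, 2 and 3 and 0.82 in male line 5 (log2 difference). Igf2r was also higher in all 4, by 0.36, 0.08, 0.50 and 0.29 in the same order of lines. Among all tested genes, 17.9% were higher in del/del in all 4 lines. H19 was higher in 3 of 4 lines, with -0.04 in female line 1, 0.65 in line 2, 0.30 in line 3 and 0.81 in male line 5. Airn was lower in 3 of 4 lines, with 0.38, -0.16, -0.12 and -0.11, and 56.4% of all tested genes had 3 lines on 1 side and 1 on the other. Line 1 thus had the smallest difference for Igf2 and H19 and the only positive one for Airn. The median over the tested genes moved with the line as well, at 0.22, -0.25, 0.10 and 0.08, and in line 1 the Igf2 difference of 0.15 lay below that median. Its part in the values of single lines was not tested.

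**Figure D2:**
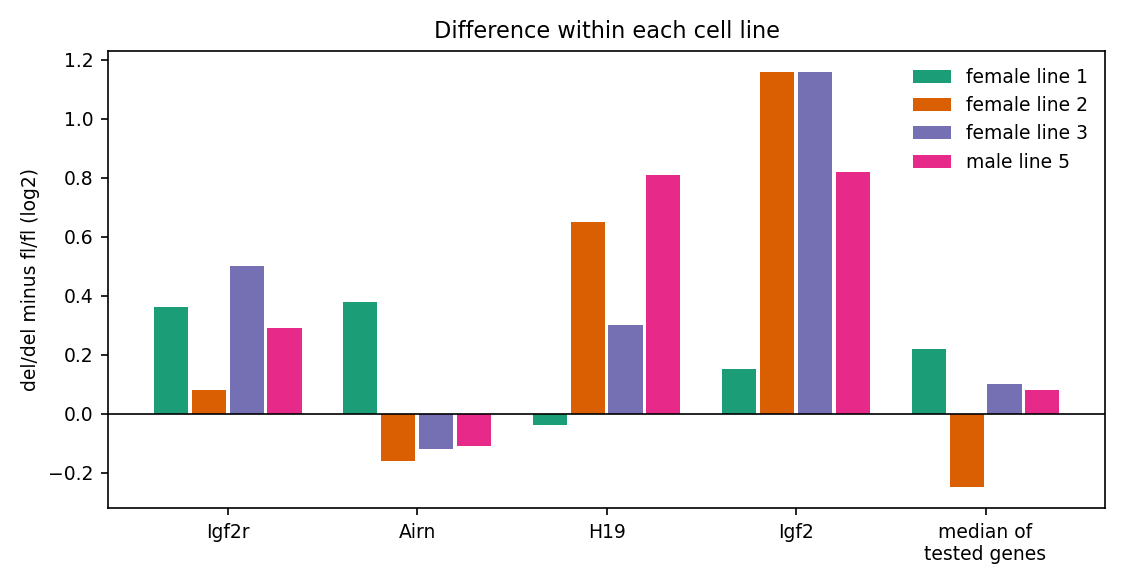
Difference between the del/del and the fl/fl culture of each line (log2, y axis) for the 4 tested genes, with the median of all 14044 tested genes at the right. Each bar is 1 line. The Igf2 bars reach 1.16 in lines 2 and 3 and 0.15 in line 1, and 3 of the 4 Airn bars lie below 0.

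Split by sex, the estimates of Igf2, H19 and Igf2r stayed above 0, with wider intervals. In females, where 0.0142% of all tested genes passed (2 genes), the log2 fold change was 0.82 for Igf2 (SE 0.363, limma adjusted p = 0.766), 0.31 for H19 (SE 0.189, adjusted p = 0.999), 0.32 for Igf2r (SE 0.178, adjusted p = 0.963) and 0.03 for Airn (SE 0.191, adjusted p = 0.999). With line as a block, 2.04% of tested genes passed in females and the adjusted p of Igf2 was 0.294. In males, with a lone del/del library whose spread is taken from the other groups, the log2 fold change was 0.70 for Igf2 (95% interval -0.53 to 1.93), 0.58 for H19 (-0.06 to 1.22), 0.07 for Igf2r (-0.54 to 0.67) and -0.23 for Airn (-0.88 to 0.41). In males 0 genes passed by limma, with 370 at an unadjusted p under 0.05. The female effect minus the male effect was 0.12 for Igf2 (95% interval -1.36 to 1.60), -0.27 for H19 (-1.04 to 0.50), 0.25 for Igf2r (-0.48 to 0.98) and 0.27 for Airn (-0.51 to 1.04). None of these differences passed (limma adjusted p = 1.0 each), 0 of all tested genes did, and 0.0427% (6 genes) had an unadjusted p under 0.05. These intervals are wide enough to hold a difference between the sexes as large as the estimates themselves.

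**Figure D3:**
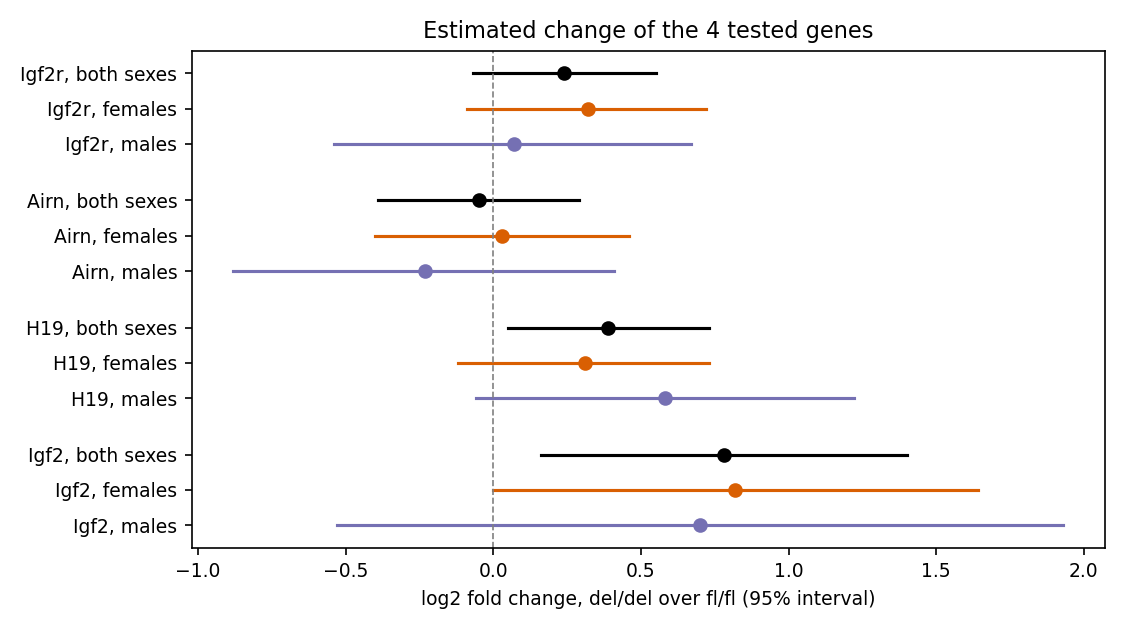
Log2 fold change of del/del over fl/fl for the 4 tested genes over both sexes, in females and in males (x axis), with points for estimates and lines for 95% intervals from limma. Over both sexes the intervals of Igf2 (0.16 to 1.40) and H19 (0.05 to 0.73) lie above 0, those of Igf2r and Airn cross 0, and all male intervals cross 0.

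Within the 6 libraries whose descriptions start with RNA-, 3 of the 4 genes separated by genotype. Igf2 lay at 0.47 or more in the 3 del/del libraries and at 0.22 or less in the 3 fl/fl libraries. H19 lay at 2.84 or more in del/del and at 2.55 or less in fl/fl, and Igf2r at 6.18 or more in del/del and at 6.10 or less in fl/fl. Of all tested genes, 15.3% separated in that direction in these 6 libraries and 20.7% in either direction. The estimates there were 1.04 for Igf2 (SE 0.298, limma adjusted p = 0.187), 0.59 for H19 (SE 0.149, adjusted p = 0.142), 0.29 for Igf2r (SE 0.181, adjusted p = 0.715) and -0.13 for Airn (SE 0.173, adjusted p = 0.809), and none of the 4 passed, against 1.28% of all tested genes. H19 averaged 2.34 ± 0.185 log2 RPM in the 3 fl/fl libraries with the prefix (SD), while female fl/fl 1 and male fl/fl 7, without it, had 2.76 and 2.75. The 3 libraries without the prefix hold only 1 del/del culture, so no fit was made among them.

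Differences between genes of the same library do not depend on how libraries were scaled against each other. H19 stood above Igf2 by 2.44, 2.37, 1.65 and 2.06 in female del/del 1, 2 and 3 and male del/del 5, against 2.63, 2.87, 2.50, 2.06 and 2.29 in female fl/fl 1, 2 and 3 and male fl/fl 5 and 7 (log2). The mean difference was 2.13 ± 0.360 in del/del (SD, n = 4) and 2.47 ± 0.312 in fl/fl (SD, n = 5). The groups overlapped, with male line 5 at the same value in both cultures. Taken on log2(RPM + 1), which damps low levels such as those of Igf2, the difference was 1.63 ± 0.217 in del/del and 1.71 ± 0.169 in fl/fl. Airn stood below Igf2r by a similar amount in all del/del libraries, with -3.03, -3.11 and -3.01 in females 1, 2 and 3 and -3.20 in male 5, against -3.04, -2.86, -2.40, -2.81 and -3.00 in the fl/fl libraries in the order above. The mean was -3.09 ± 0.0862 in del/del (SD, n = 4) and -2.82 ± 0.256 in fl/fl (SD, n = 5), and the ranges overlapped through female fl/fl 1. These differences were described and not tested.

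**Figure D4:**
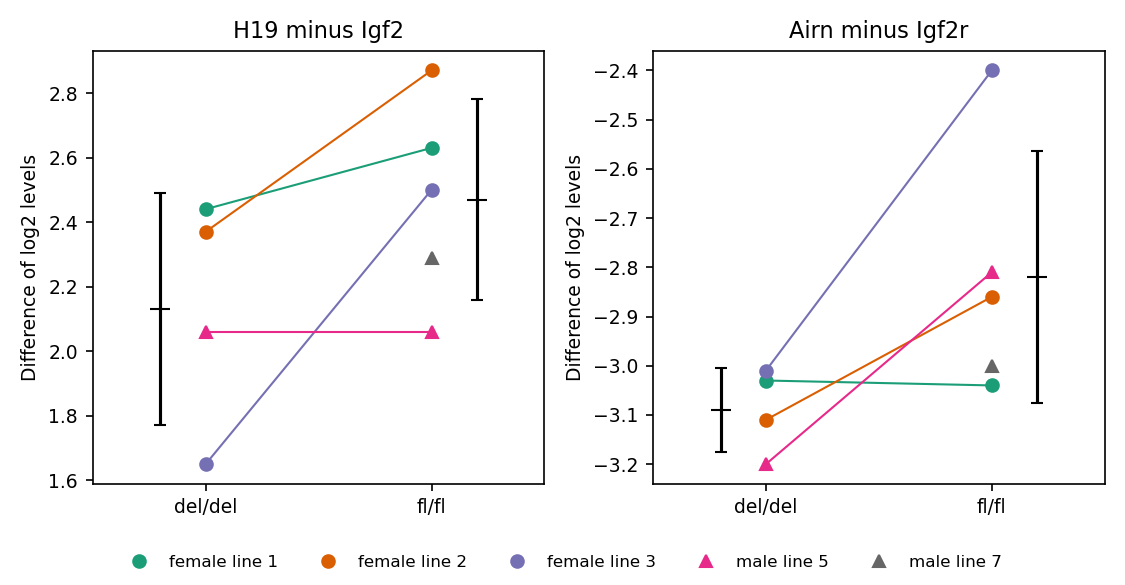
Log2 level of H19 minus Igf2 (left) and of Airn minus Igf2r (right) in each library, with lines joining the cultures of 1 line and bars for mean and SD (n = 4 del/del, n = 5 fl/fl). Airn minus Igf2r lies between -3.20 and -3.01 in del/del and between -3.04 and -2.40 in fl/fl.

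Spread between controls differed among the 4 genes. The SD over the 5 fl/fl libraries was larger for Igf2 than for 83.0% of all tested genes, and for Igf2r larger than for 24.9%, with H19 at 55.2% and Airn at 46.5%. The estimate of Igf2 over both sexes was higher than that of 96.4% of all tested genes, that of H19 than 90.6%, that of Igf2r than 84.2% and that of Airn than 38.0%. Profiles over the 9 libraries, each centred on its own mean, were compared with those of all tested genes by the mean absolute log2 difference. Nearest to Igf2r were Gm166, Man2b1 and Trafd1 (0.0529 to 0.0539), where Igf2r itself deviates from its mean by 0.163. Nearest to Airn were Adamts19, Aoc2 and Col27a1 (0.0799 to 0.088, own deviation 0.195). Nearest to H19 were C030006K11Rik, Tatdn3 and Dhrs11 (0.0700 to 0.0755, own deviation 0.221), and nearest to Igf2 were Grin2b, Pyroxd2 and Clic3 (0.138 to 0.163, own deviation 0.392).

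The genes on either side were compared with both loci. Of 12 neighbours of Igf2r on chromosome 17, 9 were tested, 0 passed, and 1 had an estimate above 0 (median log2 fold change -0.11, against -0.0041 over all tested genes). The smallest p-values among them belonged to Wtap and Acat2, with log2 fold changes of -0.20 and -0.24 (limma adjusted p = 0.997 each). The 12 neighbours summed to 533 RPM in female fl/fl 2, the highest library, and to 289 to 319 RPM in del/del. The lowest of the other fl/fl libraries had 271 RPM. The part of female fl/fl 2 in the median of these neighbours was not tested. Mas1, whose entry shares 19044 bases with the far end of Airn, lay below the filter. Of 12 neighbours of H19 and Igf2 on chromosome 7, 5 were tested, 0 passed, and 5 had an estimate above 0 (median 0.18). Lsp1, a leukocyte actin-binding protein gene, had a log2 fold change of 0.69 (SE 0.324, adjusted p = 0.548) and Tssc4 one of 0.23 (SE 0.116, adjusted p = 0.592). Below the filter, Ascl2 was at -0.65 to 0.03 log2 RPM in del/del (58 to 107 reads) and -3.01 to -0.70 in fl/fl (3 to 72 reads). Nctc1, also below it, had 0 to 2 reads per del/del library and 0 to 8 per fl/fl library. No test result is given for either. The antisense gene Igf2as overlaps Igf2 by 7124 bases and had 12 reads in all del/del libraries and 7 in all fl/fl libraries, against 672 and 537 for Igf2.

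Among 24 genes of insulin and insulin-like growth factor signalling, 18 were tested, 1 rose and 0 fell (median 0.06). The gene that rose was Irs4, an X-linked adaptor that docks signalling proteins to the activated insulin and growth factor receptors. Irs4 had 3.29, 3.04 and 3.45 log2 RPM in female del/del 1, 2 and 3 and 3.60 in male del/del 5, against 2.73, 2.56 and 2.57 in female fl/fl 1, 2 and 3 and 2.16 and 2.52 in male fl/fl 5 and 7. The ranges did not overlap, as for 6.52% of all tested genes, and the log2 fold change was 0.83 (SE 0.152, 1.78-fold, limma adjusted p = 0.0281). It no longer passed when a single library was left out, male del/del 5 (limma adjusted p = 0.257), female del/del 1 (0.0875), female del/del 3 (0.0867) or, of the controls, female fl/fl 3 (0.0717), within the 6 RNA- libraries (0.0887), under 3 other scalings (0.0507 to 0.108) and with median centring together with the line block (0.0584). Grb10, an imprinted adaptor that inhibits the same receptors, had a log2 fold change of -0.64 (SE 0.145, limma adjusted p = 0.0689). With line as a block, where 3.99% of all tested genes passed, 3 genes of the list rose and 1 fell. Irs4 (adjusted p = 0.0282) rose, as did Igfbp7 (0.00656) and Igfbp5 (0.0400), which encode secreted proteins of the growth factor binding family, and Grb10 fell (0.0443). The receptors Igf1r and Insr, through which the growth factor signals, had log2 fold changes of 0.16 and 0.10 (adjusted p = 0.916 and 0.997).

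Of 16 genes of mannose 6-phosphate tagging and the lysosome, the sorting role of Igf2r, 15 were tested and 0 passed (median 0.07). Ctsa, a lysosomal protease gene, had a log2 fold change of 0.22 (SE 0.124, limma adjusted p = 0.717). TCACGTGA stood in the promoters of 3 of 12 genes of this list with a promoter in the table, Ctsa, Ctsd and Gnptg. Of 9 genes whose products bind or regulate H19 and Igf2 RNA, 6 were tested and 0 passed (median 0.05), with Igf2bp2 at 0.20 and Igf2bp3 at 0.17. Of 17 genes that set or keep imprints, 15 were tested, 0 rose and 1 fell, Smchd1 itself (median -0.12). Uhrf1, which recruits the maintenance DNA methyltransferase, was at -0.17 (adjusted p = 0.936). These 17 genes summed to 1460 RPM in female fl/fl 2, the highest library, and to 819 to 1050 RPM in del/del. The lowest of the other fl/fl libraries had 849 RPM, and the part of female fl/fl 2 in that median was not tested. Of 7 organic cation transporter genes beside Slc22a2 and Slc22a3, 4 were tested and 0 passed (median 0.26), with Slc22a5 at 0.31 (adjusted p = 0.238) and Slc22a4 at 0.64 (adjusted p = 0.311).

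Of 13 genes in the table from a network of imprinted genes known to move with H19 and Igf2 in mouse, 12 were tested, 2 rose and 0 fell (median 0.01). These were the neighbours Dlk1 and Meg3 on chromosome 12, with log2 fold changes of 2.32 (SE 0.323, limma adjusted p = 0.00923) and 2.23 (SE 0.278, adjusted p = 0.00751). Dlk1 had 1.72 to 2.38 log2 RPM in del/del against -0.89 to 0.75 in fl/fl, and Meg3 1.57 to 2.24 in del/del against -0.94 to 0.24 in fl/fl. With male del/del 5 left out, neither passed (limma adjusted p = 0.093 each), with log2 fold changes of 2.51 for Dlk1 and 2.22 for Meg3; 2 genes in all passed in that fit.

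**Figure D5:**
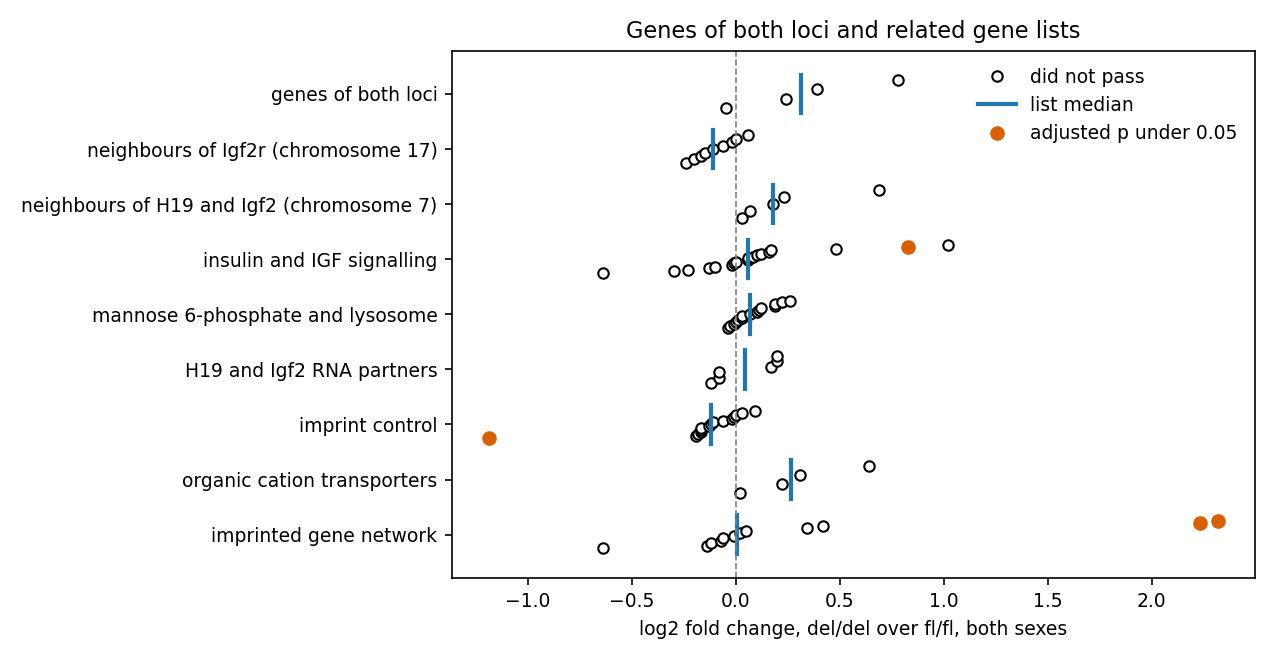
Log2 fold change over both sexes (x axis) of each tested gene, by list (rows); filled points passed at an adjusted p under 0.05, open points did not, and bars are list medians. The 4 genes of both loci are all open, at -0.05 to 0.78 with a median of 0.31.

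Other cell types that express Igf2 strongly were looked for with marker genes. Of 12 markers of fibroblasts, meninges and mesenchyme, 4 were tested and 0 passed, with a summed level of 88.0 to 121 RPM in del/del and 61.2 to 104 RPM in fl/fl. Of their defining genes, Lum had 0 reads in all libraries, and the collagen gene Col1a1 had 5.77 RPM in female del/del 2 and 0.647 to 0.658 RPM in the other del/del libraries, against 0.249 to 1.04 RPM in fl/fl. Igf2 was at 0.47 log2 RPM in female del/del 2, below female del/del 3 and male del/del 5. Within line 2, however, it lay 1.16 (log2) above the fl/fl culture, whose level rests on 15 reads. Of 8 choroid plexus markers 0 passed the filter, with a summed level of 0.846 to 4.79 RPM in del/del and 1.01 to 3.08 RPM in fl/fl. Of 8 endothelial markers, 2 were tested and 0 passed, at 4.61 to 8.78 RPM in del/del and 2.94 to 5.59 RPM in fl/fl, and 1 of them, Flt1, passed with line as a block (adjusted p = 0.00995). Muscle markers summed to 10.4 to 16.5 RPM in del/del and 9.30 to 17.5 RPM in fl/fl, with Myf5 at 0 reads throughout. Microglia and leukocyte markers summed to 107 to 120 RPM in del/del and 93.2 to 126 RPM in fl/fl. This last sum is in large part Cx3cr1, at 6.56 to 6.73 log2 RPM in del/del and 6.38 to 6.85 log2 RPM in fl/fl. Of the 6 microglia and leukocyte genes, 3 were tested. Below the filter, Ptprc had at most 7 reads and Aif1 at most 6 reads in any library. The 12 neural stem cell markers were all tested and 0 passed (median -0.07). Of 7 tested astrocyte markers, 3 rose, Gfap, Aqp4 and Slc1a2 (median of the list 0.56), and the list summed to 160 to 204 RPM in del/del and 117 to 170 RPM in fl/fl. None of these 3 passed without male del/del 5 (limma adjusted p = 0.186, 0.237 and 0.257), female del/del 1 (0.0836, 0.0709 and 0.0868), female del/del 2 (0.0718, 0.0995 and 0.146) or female fl/fl 3 (0.0538, 0.0605 and 0.0956), in the order given. Aqp4 and Slc1a2 also failed without female del/del 3 (0.0551 and 0.0693), and Slc1a2 without male fl/fl 5 (0.0580). All 3 failed when scaled to reads in listed genes (0.0766, 0.0907 and 0.121). Gfap and Aqp4 failed after quantile normalization (0.0506 and 0.0801), and Slc1a2 with median centring together with the line block (0.0529). Of 8 tested neuron markers, the neurofilament genes Nefl and Nefm rose, and neither passed without male del/del 5 (0.0930 and 0.0717), nor Nefl within the 6 RNA- libraries (0.0577). The median of the neuron list was -0.08. Tubb3 was at -0.36, Syp at -0.30, Rbfox3 at -0.50, Dcx at -0.18, Snap25 at 0.01 and Gad1 at 0.80, none of which passed. Gad1 was higher in del/del in all 4 lines and passed with line as a block (limma adjusted p = 0.0348). Stmn2, below the filter, had 16 to 60 reads per del/del library and 0 to 22 per fl/fl library. The summed neuron level, 91.5 to 117 RPM in del/del and 57.8 to 63.7 RPM in fl/fl, is in large part Nefm, with 39.8 to 54.6 RPM in del/del and 13.3 to 19.6 RPM in fl/fl. Markers that did not pass were also ordered by p-value within each list. The smallest belonged to Msi1 and Olig2 for stem cells (log2 fold changes 0.17 and -0.23) and Acta2 and Tagln for mesenchyme (0.28 and 0.18). For endothelium they belonged to Flt1 and Kdr (1.84 and 0.61) and for muscle to Actc1 and Tnnt1 (-0.47 and 0.11). For microglia they belonged to Cd68 and Csf1r (0.59 and -0.06). The smallest belonged to Gja1 (0.40) for astrocytes and to Gad1 (0.80) for neurons. The part of other cell types in the Igf2, H19 and Igf2r values was not tested.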

How the data were processed

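The authors deposited 1 table with a log2 level per gene and library, log2 RPM (reads per M reads, M being 1e+06). Per the submitters' processing notes, bcl2fastq, TopHat2 2.0.12, edgeR 3.8.2 and mm10 were used; the counter, the annotation and the strand setting are not named there. Dividing each library's values by what 1 read is worth gave whole numbers for at least 99.9961% of genes (within 0.05 reads), a gene with 0 reads being held as 0.9; 1 read is worth 1 part in 24.1 M to 116.6 M.

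Groups came from the sample titles; the design text instead calls all lines female and the controls del/fl, and the titles were followed. Genes with at least 0 log2 RPM in at least 3 libraries were tested (14044) with limma 3.58.1 in R 4.3.3 on the deposited log2 values (intensity trend, two-sided, Benjamini-Hochberg), with sex as a covariate, or as 4 group means for the sexes. No negative binomial test was run. The fit was tested on simulated data. Line numbers pair the cultures, since the growth protocol divides each line. The deviations of same-line female libraries from their group means correlated with r of 0.868, 0.582 and 0.758 across genes (lines 1, 2 and 3). Between different lines r was -0.841 to 0.728. Female del/del 2 correlated more with female fl/fl 3 (0.728) than with female fl/fl 2 (0.582). Centring groups of 3 libraries also pushes some r below 0, so these values do not establish the pairing. Nothing in the labels says that lines come from separate embryos, so p-values measure the spread between these libraries.

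The 7 genes and all lists were chosen with earlier results of these data known. All 7 are named; from each list, the genes that passed and, where fewer than 2 did, those with the smallest p up to 2; for each tested gene the 3 nearest profiles. A gene that meets this rule and is left out of the text is not reported here, while list counts include it. Genes named beyond this rule (Igf1r, Insr, Igfbp5, Igfbp7, Mas1, Igf2as, Ascl2, Nctc1, Lum, Col1a1, Myf5, Cx3cr1, Ptprc, Aif1, Gja1, Tubb3, Syp, Rbfox3, Dcx, Snap25, Gad1, Stmn2 and Ctsd and Gnptg for their promoters) were chosen after their values were seen. Alternatives were a line block, other scalings, log2(RPM + 1), limma's voom on the reads, other filters, library weights, no sex covariate, and leaving out libraries. RefSeq GRCm38.p6 gave promoters for 5 of 7 genes.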

Additional observations from a re-analysis of the deposited data

Results flagged for a closer look

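Of 76 groups of values checked for 1 library far from the others, 3 were marked, where chance marks about 1 in 20. Slc22a3 was at -1.64 log2 RPM in male fl/fl 7, above the other fl/fl libraries at -2.27 to -2.11, which rests on 37 reads in that library. The stem cell marker Olig2 was at 6.69 log2 RPM and Wtap at 5.83 log2 RPM in female fl/fl 2, above the other fl/fl libraries; that is the shallowest library, with 53.3% of its reads in listed genes, and the part of this in both values was not tested.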

How the results depend on the processing

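Over both sexes, Igf2r (log2 fold change 0.18 to 0.32 over 21 alternatives, limma adjusted p 0.224 to 1.0) and Igf2 (0.44 to 1.04 over 20, adjusted p 0.0639 to 0.783) kept their sign and did not pass. The stricter filter leaves Igf2 out. H19 ranged over 0.29 to 0.59 and passed with library weights alone (0.41, adjusted p = 0.0454; 1 of the 4 genes against 0; the iteration of the weights did not converge fully). Leaving out 1 library each, Airn ranged over -0.14 to 0.04 for both sexes and -0.09 to 0.20 in females, and turned its sign; the cause was not tested. The count of genes that passed over both sexes (217) was 561 with line as a replicate block, 104 after quantile normalization, 69 when scaled to reads in listed genes, 1374 with library weights, and 2 to 252 with 1 library left out, lowest without male del/del 5; 0 of the 4 genes passed in any of these leave-outs. In females the count (2) was 287 with the block and 0 to 7 with 1 library left out. The block changed no call of the 4 genes. Of 336 list counts compared, 301 stayed within 1.5 times and 35 did not. Depth limits Slc22a2, Slc22a3, Ins2 and, in female fl/fl 2, Igf2.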
